A study of Mus musculus with 4 samples.

Results

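The circadian clock genes examined here are Arntl, Clock, Per1, Per2, Per3, Cry1, Cry2, Nr1d2, Dbp and Tef. They were read through every probe set of the deposited table whose platform annotation names exactly 1 gene, that gene being 1 of these 10. The rule found 18 probe sets, at least 1 for each gene, among 22626. Affymetrix control probe sets are left out of that number and of what is called the table below. The arrays were Affymetrix mouse arrays hybridised with labelled RNA from the mouse preadipocyte line 3T3-F442A after its conversion to fat cells. All cells carried a retroviral short hairpin RNA and had been selected with 2 ug/ml puromycin for 2 days. All were differentiated at confluence with insulin (850 nM, 8 days), and rosiglitazone, which activates PPAR gamma, was present for the first 2 days. The 2 control arrays are labelled shGFP, a hairpin against green fluorescent protein, and the other 2 are labelled shTRPV4, a hairpin against the calcium-permeable channel gene Trpv4; below they are called control and shTRPV4 arrays by these labels. The labels name 1 hairpin per group, and they do not say whether replicates were separate infections or cultures, so p-values rest on the spread between arrays alone, and that spread could be technical in origin. The hour of the day at which cells were collected, and any medium change before collection, do not appear in the labels.

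The circadian clock is a feedback loop of transcription that runs in most cells, fat cells included. BMAL1, encoded by Arntl, pairs with CLOCK and activates genes through E-boxes, among them the Per and Cry genes, whose proteins return to the nucleus and repress the pair. The REV-ERB receptors, of which Nr1d2 encodes the beta form, repress Arntl, and the PAR bZIP factors encoded by Dbp, Tef and Hlf drive a further layer of rhythmic genes through D-boxes. In a rhythmic culture the level of those of these transcripts that are rhythmic depends on the phase at collection, which a single collection does not show.

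Among the clock genes, Dbp was the gene whose probe sets passed the test. Both of its probe sets were higher on the shTRPV4 arrays, by 1.66-fold and 1.56-fold on the log2(intensity + 16) scale that is used for all differences here. The core activators Arntl and Clock, the repressors Per1 and Cry1, and Nr1d2 gave differences of at most 0.14 in either direction, with intervals that included 0. Per3 gave probe sets of opposite sign, and none passed. Of the 18 probe sets, 2 were higher and 0 lower at a limma adjusted p under 0.05, with 7 at an unadjusted p under 0.05. Over all 22626 probe sets, 9.90% passed in either direction (4.54% higher, 5.36% lower), and 30.6% had an unadjusted p under 0.05. The share of clock gene probe sets that passed is thus near that of the whole table, and does not set the clock genes apart. Their median difference was 0.10 against 0.02 for all probe sets, and the median absolute difference was 0.14 against 0.18. Of the 18, 8 lay below the median level of all probe sets.

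**Figure D1:**
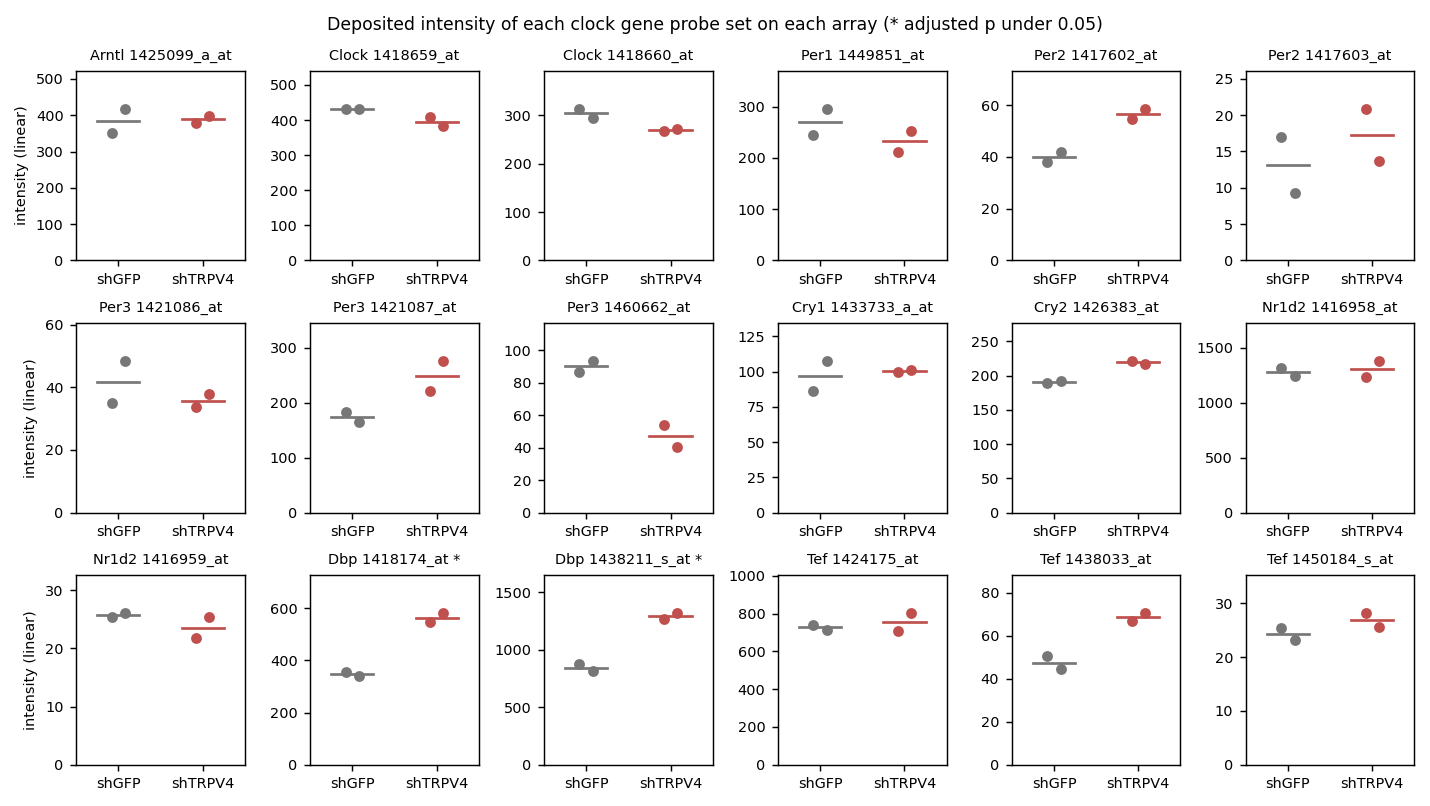
Deposited linear intensity (y axis, from 0) of each of the 18 clock gene probe sets; points are the 2 arrays of each group and bars their means. Each panel has its own axis, since levels of different probe sets are not comparable; the Dbp panels, marked with an asterisk, are those past the threshold.

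The hairpin's target, Trpv4, was not lower on the shTRPV4 arrays, so its probe set does not bear out the label. This single probe set (1417545_at) read 43.7 and 93.8 on the control arrays and 80.1 and 79.5 on the shTRPV4 arrays (log2 difference 0.32, SE 0.31, 95% interval -0.55 to 1.19, adjusted p = 0.55). Without shGFP replicate 1 this difference was -0.09. Adipocyte genes were bright in every array, with Adipoq, the adiponectin gene, between 11785 and 14169. Of 14 adipocyte marker probe sets 5 were higher, those of Pparg, Cebpa, Slc2a4 and Retn, and 0 lower. Sums here and below are of deposited values. For the 14 probe sets they were 83311 to 84109 on the control arrays and 94263 to 98655 on the shTRPV4 arrays. Most of each sum came from Fabp4, Lpl and Adipoq, and no probe set of these passed. Of 10 preadipocyte and fibroblast marker probe sets 9 were lower, with sums of 26113 to 27683 and 10582 to 11304. Of 11 macrophage marker probe sets 3 were lower and 1 higher (sums of 1081 to 1190 and 728 to 782). The lower probe sets were those of Cd14 and Lyz2 and Csf1r 1419872_at, which read 106.5 and 128.9 against 60.5 and 47.8. The other Csf1r probe sets did not pass. Without Cd14 and Lyz2, a split chosen after the values were seen, 9 probe sets summed to 385.6 to 449.3 and 475.8 to 480.5. The higher probe set, also in that sum, was that of Cd68, which read 41.1 and 66.7 against 154.0 and 182.2. Ptprc of the same list read 5.43 to 11.3 on the 4 arrays. As deposited, both shTRPV4 arrays were above both controls on 3 of the 11 (Cd68, Adgre1 and Itgam) and below them on 4. Over all probe sets the shares were 26.2% and 30.3%. The Adgre1 and Itgam probe sets did not pass. Of 7 proliferation marker probe sets 3 were lower and 0 higher (sums of 2236 to 2252 and 1394 to 1480), and a Top2a probe set (1427724_at) was at the table's floor of 1 on every array. In bulk RNA, fewer cells of a type and less RNA per cell cannot be told apart, and the part of these cell state differences in the clock gene values was not tested.

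The activators were close to level between the groups. Arntl encodes the rhythmic partner of the pair, and its probe set 1425099_a_at read 351.8 and 418.4 on the control arrays and 378.7 and 398.3 on the shTRPV4 arrays. Both shTRPV4 readings lay between the control readings, and the difference was 0.07 (SE 0.09, 95% interval -0.18 to 0.32, adjusted p = 0.64). Clock encodes the histone acetyltransferase partner of BMAL1. Its probe set 1418659_at read 432.1 and 432.6 against 407.3 and 382.3, and its probe set 1418660_at read 313.9 and 294.7 against 267.8 and 272.3. On both Clock probe sets the shTRPV4 arrays were below the controls without overlap, as deposited. As deposited, groups did not overlap for 56.5% of all probe sets (26.2% higher, 30.3% lower), against 11 of the 18 clock gene probe sets (7 higher, 4 lower). Deposited array medians were 138.6 and 144.0 on the control arrays and 129.4 and 132.8 on the shTRPV4 arrays. After quantile normalization the groups overlapped on Clock 1418659_at (8.82 and 8.74 against 8.78 and 8.65). They also did on Nr1d2 1416959_at (5.36 and 5.38 against 5.23 and 5.39), which was lower without overlap as deposited. The Clock differences were -0.07 (95% interval -0.30 to 0.16, adjusted p = 0.63) and -0.10 (-0.34 to 0.14, adjusted p = 0.50), and neither passed.

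The period genes, which encode the PER repressors, had differences of either sign, and no probe set of theirs passed. Per1, which responds fast to hormones and cAMP as well as to the clock, read 244.6 and 296.1 on the control arrays and 211.2 and 253.2 on the shTRPV4 arrays. The groups overlapped, and the difference was -0.14 (SE 0.12, 95% interval -0.47 to 0.19, adjusted p = 0.50). Per2, whose protein is the limiting repressor in many cells, was dim. Its probe set 1417602_at read 38.1 and 42.1 against 54.6 and 58.7, with both shTRPV4 arrays above both controls. The difference was 0.43 (SE 0.08, 95% interval 0.21 to 0.65, adjusted p = 0.055), just outside the threshold. It passed with median centring (adjusted p = 0.034), with an offset of 64 (0.044) and without probe sets under the 25th percentile of level (0.025), with 0.025 to 0.23 as the span of the alternatives. The second Per2 probe set, 1417603_at, read 16.9 and 9.26 against 20.9 and 13.6, around the offset of 16. There the groups overlapped, with a difference of 0.20 (95% interval -0.33 to 0.73, adjusted p = 0.54).

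Per3, a period gene that is not needed for the rhythm itself, had 3 probe sets with differences of opposite sign. The first, 1421087_at, read 183.2 and 165.6 on the control arrays and 221.1 and 276.7 on the shTRPV4 arrays, higher without overlap. The second, 1460662_at, read 86.6 and 93.6 against 53.8 and 40.2, lower without overlap. The third, 1421086_at, read 35.0 and 48.5 against 33.7 and 37.8, and its groups overlapped. The differences were 0.53 (SE 0.14, adjusted p = 0.094), -0.69 (SE 0.12, adjusted p = 0.054) and -0.09 (SE 0.14, adjusted p = 0.72), so none passed. The first passed without probe sets under the 25th and 50th percentiles of level (adjusted p = 0.046 and 0.014), with 0.014 to 0.28 as the span of the alternatives. The second passed with an offset of 64 (0.027), without probe sets under the 25th percentile (0.022) and with an intensity trend (0.044), with 0.022 to 0.20 as the span. The gap between the first and the second was 1.23 (SE 0.23, 95% interval 0.63 to 1.83, limma unadjusted p = 0.0038). That test of unequal differences was added after the values were seen and was fitted over all 12821 pairs of probe sets of a gene; its adjusted p was 0.14, and 0 pairs passed in the whole table, with 2095 (16.3%) at an unadjusted p under 0.05. With the 3 probe sets averaged, Per3 differed by -0.08 (95% interval -0.26 to 0.09, adjusted p = 0.43), a value that hides the opposite signs. All 3 are annotated with the same transcript accession, and which part of the transcript each reads was not analysed here. The probe sets therefore give no direction for Per3.

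The cryptochrome genes encode the partners of PER in the repressing complex. Cry1 (1433733_a_at) read 86.1 and 107.7 on the control arrays and 99.7 and 101.4 on the shTRPV4 arrays. The shTRPV4 readings lay inside the control range as deposited. After quantile normalization they lay just above it (6.66 and 6.88 against 6.91 and 6.90). The difference was 0.13 (SE 0.10, 95% interval -0.15 to 0.42, limma adjusted p = 0.44). Cry2 (1426383_at) read 189.4 and 192.6 against 221.6 and 217.2. Both shTRPV4 arrays were above both controls, and replicates lay close together, but the difference of 0.25 (SE 0.07, 95% interval 0.06 to 0.44, adjusted p = 0.11) did not pass. It passed when probe sets under the 50th percentile of level were left out (adjusted p = 0.024), with 0.024 to 0.33 as the span of the alternatives.

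Nr1d2 encodes REV-ERB beta, a heme-binding repressor of Arntl that also acts on lipid genes. Its bright probe set 1416958_at read 1318 and 1248 on the control arrays and 1235 and 1383 on the shTRPV4 arrays. The groups overlapped on both sides, with a difference of 0.06 (SE 0.09, 95% interval -0.19 to 0.30, adjusted p = 0.72). The dim probe set 1416959_at read 25.5 and 26.1 against 21.7 and 25.3 (difference -0.06, 95% interval -0.30 to 0.18, adjusted p = 0.69). Neither gives a direction for the gene.

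The PAR bZIP genes held the clock gene probe sets that passed. Dbp encodes the D-box binding protein, one of the transcripts of widest daily swing in many tissues and a direct target of BMAL1 and CLOCK. Its probe set 1418174_at read 354.5 and 338.8 on the control arrays and 546.8 and 581.5 on the shTRPV4 arrays (346.7 ± 11.1 and 564.2 ± 24.5, SD, n = 2). The second, 1438211_s_at, read 874.5 and 812.3 against 1268 and 1321 (843.4 ± 44.0 and 1295 ± 37.3, SD, n = 2). On each probe set both shTRPV4 arrays were above both controls, and the distance between the groups was several times that between replicates. The differences were 0.73 (SE 0.08, 95% interval 0.50 to 0.95, limma adjusted p = 0.026) and 0.64 (SE 0.09, 95% interval 0.39 to 0.89, limma adjusted p = 0.037).

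The Dbp probe sets gave nearly the same difference, with a gap of 0.09 (95% interval -0.18 to 0.36). Averaged, they rose by 0.68 (SE 0.08, limma adjusted p = 0.023), where 12.9% of 12393 genes passed in a fit on averaged probe sets. The differences stood at percentiles 98.3 and 97.4 of all signed differences, so Dbp is inside the upper tail of the table and not at its end. A probe set with the suffix _s_at can read related transcripts, and 1418174_at does not carry that suffix. The call held with the values as deposited (adjusted p = 0.027 and 0.033) and with median centring (0.016 and 0.022). It was lost with an offset of 1 (0.055 and 0.070) and with any 1 array left out (0.13 to 0.21), in fits with 1 residual degree of freedom that called 0 of 22626 probe sets (4543 to 5913 at an unadjusted p under 0.05). The difference itself stayed between 0.55 and 0.80 under every alternative. Alongside, 9 of 10 probe sets for preadipocyte and fibroblast markers were lower and 5 of 14 for adipocyte markers higher, and their part in the Dbp difference was not tested.

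Tef encodes thyrotroph embryonic factor, a PAR bZIP protein that binds the same D-box. Its first probe set, 1424175_at, read 739.8 and 713.7 on the control arrays and 709.2 and 803.5 on the shTRPV4 arrays. The shTRPV4 arrays lay on either side of the controls, with a difference of 0.09 (SE 0.09, 95% interval -0.15 to 0.34, adjusted p = 0.54). The second, 1438033_at, read 50.8 and 44.4 against 67.1 and 70.7, higher without overlap. Its difference of 0.49 (SE 0.08, 95% interval 0.25 to 0.72, adjusted p = 0.051) was the closest to the threshold among those that did not pass. It passed with median centring (adjusted p = 0.045), with an offset of 64 (0.033) and without probe sets under the 25th percentile (0.022), with a span of 0.022 to 0.23. The third, 1450184_s_at, read 25.4 and 23.3 against 28.2 and 25.5 (difference 0.11, 95% interval -0.09 to 0.32, adjusted p = 0.37). The gap between the first and the second Tef probe sets, -0.39 (95% interval -0.67 to -0.11), had an unadjusted p of 0.016 and an adjusted p of 0.21. Averaged, Tef differed by 0.23 (95% interval 0.03 to 0.43, adjusted p = 0.12) and did not pass.

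**Figure D2:**
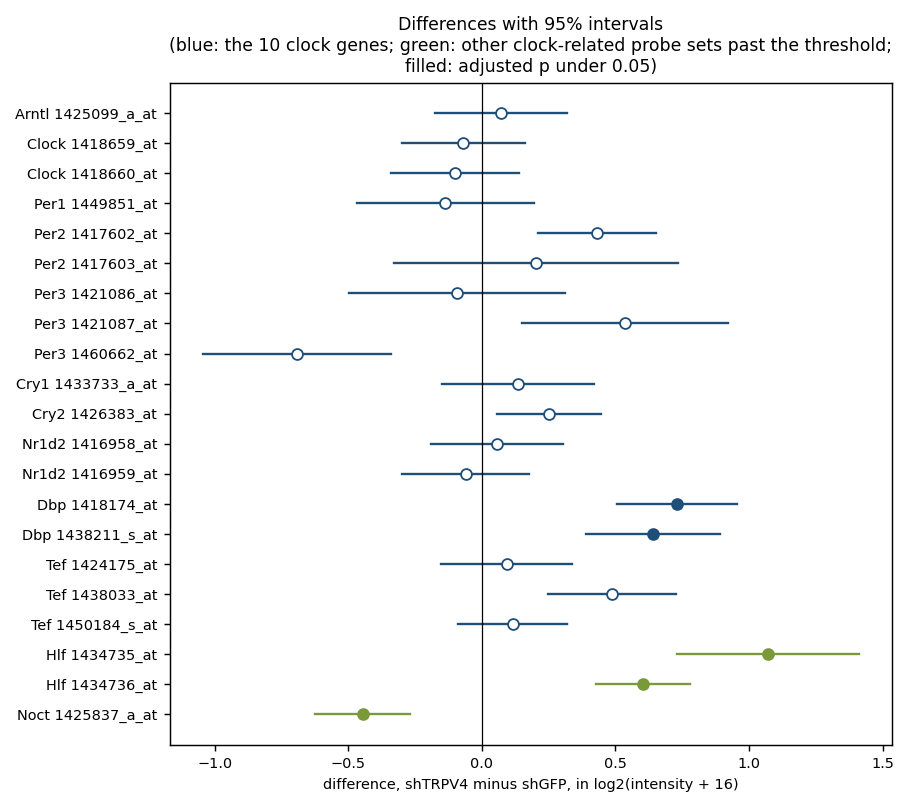
Differences between shTRPV4 and control arrays in log2(intensity + 16), with 95% intervals from limma (x axis), for the 18 clock gene probe sets (blue) and the 3 other clock-related probe sets past the threshold (green); filled points passed. The Dbp intervals lie above 0, at 0.39 to 0.95 in all, while Per3 has intervals on both sides of 0.

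The promoters of the PAR bZIP genes and of Per3 are shown because these genes lie on both sides of the D-box: Dbp, Tef and Hlf, a further PAR bZIP gene outside the 10, encode factors that bind it, and Per3 carries it. Promoter windows of RefSeq genes (GRCm38.p6) were available for 9 of the 10 genes, Per2 being the exception, and the 250 bases before each annotated start were searched on both strands. The motifs were the E-box CACGTG, the related element CACGTT, the D-box as TTATGTAA or TTACGTAA, the AGGTCA core of ROR and REV-ERB receptor sites, and the cAMP response element TGACGTCA. AGGTCA is part of the longer receptor site and was searched alone, and no motif searched contains another. Sequences run 5′ to 3′ on the gene's strand, with matches in capitals.
Per3, chr4:151044666-151044915 (minus strand): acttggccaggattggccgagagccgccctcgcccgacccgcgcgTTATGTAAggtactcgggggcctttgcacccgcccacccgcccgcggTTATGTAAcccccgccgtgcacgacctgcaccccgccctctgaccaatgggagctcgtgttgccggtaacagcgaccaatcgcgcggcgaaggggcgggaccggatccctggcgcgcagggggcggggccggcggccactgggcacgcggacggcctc
Dbp, chr7:45704997-45705246 (plus strand): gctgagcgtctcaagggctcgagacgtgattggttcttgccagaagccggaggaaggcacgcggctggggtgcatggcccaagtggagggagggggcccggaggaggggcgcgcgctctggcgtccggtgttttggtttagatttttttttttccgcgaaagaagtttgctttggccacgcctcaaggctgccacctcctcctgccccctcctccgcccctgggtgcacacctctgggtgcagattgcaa
Tef, start 1, chr15:81802423-81802672 (plus strand): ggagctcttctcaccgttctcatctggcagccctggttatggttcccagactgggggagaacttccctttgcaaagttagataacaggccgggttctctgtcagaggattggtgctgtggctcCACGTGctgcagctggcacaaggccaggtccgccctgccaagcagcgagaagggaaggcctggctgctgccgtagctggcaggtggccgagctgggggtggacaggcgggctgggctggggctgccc
Tef, start 2, chr15:81811164-81811413 (plus strand): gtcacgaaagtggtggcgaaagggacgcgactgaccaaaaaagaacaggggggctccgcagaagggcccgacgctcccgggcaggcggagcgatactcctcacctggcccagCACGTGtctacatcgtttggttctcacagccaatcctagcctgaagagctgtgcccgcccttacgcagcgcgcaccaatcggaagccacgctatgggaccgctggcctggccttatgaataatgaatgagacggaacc
Hlf, chr11:90390918-90391167 (minus strand): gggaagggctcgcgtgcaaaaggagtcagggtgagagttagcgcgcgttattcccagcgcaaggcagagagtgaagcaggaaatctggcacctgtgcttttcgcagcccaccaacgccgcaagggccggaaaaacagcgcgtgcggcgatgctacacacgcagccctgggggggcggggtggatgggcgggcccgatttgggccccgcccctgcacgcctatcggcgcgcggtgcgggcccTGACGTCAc
The Per3 window held TTATGTAA at 2 places, whose first bases lie 205 and 158 bases before the start. That motif was in 0.819% of 32851 promoter windows of this length, and among the 14 windows of the 9 genes only that of Per3 held it. TTACGTAA was in none of the 14 and in 0.113% of all windows. Each of the Tef windows held 1 CACGTG, 127 and 138 bases before its start. Windows of Per1 and Cry1 held it as well, so that 4 of the 14 windows had it, against 6.02% of all windows. The Dbp window held none of the motifs. Of the others, CACGTT was in 1 window each of Cry1 and Cry2 (3.85% of all windows) and AGGTCA in 1 window each of Clock, Per1 and Nr1d2 (14.0%). TGACGTCA was in none of the 14 (1.55%), and the Hlf window held it once, 9 bases before the start. These matches describe the letters in the windows and not the binding of any factor.

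The rest of the clock pathway was read from a list of 37 further genes, of which 28 had a probe set naming that gene alone, 60 probe sets in all. The remaining genes of the list are not analysed here. Of the 60, 2 were higher, 1 lower and 57 did not pass, a share below the 9.90% of the whole table, and 21 had an unadjusted p under 0.05. Their median difference was 0.11, against 0.02 for all probe sets. Both of the higher probe sets belong to Hlf, the third PAR bZIP gene. Probe set 1434735_at read 28.8 and 20.6 on the control arrays and 65.6 and 67.1 on the shTRPV4 arrays, and 1434736_at read 43.4 and 42.8 against 69.8 and 70.1. On both, the shTRPV4 arrays were above the controls by far more than replicates differed. The differences were 1.07 (SE 0.12, 95% interval 0.73 to 1.41, limma adjusted p = 0.028) and 0.60 (SE 0.06, 95% interval 0.43 to 0.78, limma adjusted p = 0.024). These levels are near the offset, which sets the size: 1434735_at differed by 1.47 (adjusted p = 0.063) with an offset of 1 and by 0.58 with an offset of 64. Both calls were lost with any 1 array left out (adjusted p = 0.13 to 0.21).

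Nfil3 encodes E4BP4, which occupies D-boxes as a repressor opposite to the PAR bZIP factors. It read 568.4 and 670.1 against 442.5 and 478.1, lower without overlap. Its difference of -0.36 (SE 0.09, 95% interval -0.61 to -0.12, adjusted p = 0.085) did not pass, and it was chosen for mention after its values were seen, being the other D-box factor of the list.

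The probe set that was lower belongs to Noct, which encodes nocturnin, a rhythmic phosphatase linked to adipogenesis. It (1425837_a_at) read 890.3 and 919.2 on the control arrays and 642.5 and 642.7 on the shTRPV4 arrays, lower without overlap. Noct fell by 0.45 (SE 0.06, 95% interval -0.63 to -0.27, limma adjusted p = 0.038), a call lost with an offset of 1 (adjusted p = 0.069) and with any 1 array left out (0.14 to 0.21). Among those that did not pass, the differences of largest size were those of Id2, a helix-loop-helix inhibitor with a daily rhythm, at 0.65 (1435176_a_at, adjusted p = 0.11) and 0.60 (1422537_a_at, adjusted p = 0.15), and of Btrc, a ubiquitin ligase subunit that acts on PER, at -0.46 (1417325_at, adjusted p = 0.060). The Id2 values rest on the control arrays, at 0.42 and 0.38 without shGFP replicate 1 and 0.89 and 0.83 without shGFP replicate 2, and 1435176_a_at passed without probe sets under the 50th percentile (adjusted p = 0.018). That Btrc probe set read 3.18 to 13.1, below the offset on every array. The brighter Btrc probe set, 1425680_a_at, read 110.7 and 128.7 on the control arrays and 138.9 and 142.8 on the shTRPV4 arrays. It went the other way, higher without overlap (difference 0.30, 95% interval 0.07 to 0.52, limma adjusted p = 0.10), and did not pass. The probe sets therefore give no direction for Btrc. Nr1d1, the gene of REV-ERB alpha, read 87.2 and 117.6 against 87.4 and 105.9 and differed by 0.02 (95% interval -0.40 to 0.44, adjusted p = 0.95).

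By role, the 21 probe sets of kinases had differences from -0.42 to 0.34 and a median of 0.06, and 0 passed. The 5 of the nuclear receptor loop, 3 of them of Rora, were all positive, with a median of 0.21, and 0 passed. Over the whole table, 11889 of 22626 probe sets had a positive difference. The 7 of ubiquitin ligases and the protease Usp2 ran from -0.46 to 0.45, and the 7 of corepressors and cofactors from -0.16 to 0.10, with 0 past the threshold in each. At an unadjusted p under 0.05, limma gave 5 of the kinase, 2 of the nuclear receptor loop, 3 of the ligase and protease and 0 of the cofactor probe sets. The share over all probe sets was 30.6%. The 5 of paralogues and partners ran from -0.40 (Timeless 1417586_at) to 0.28 (Npas2 1421036_at). The other Timeless probe set, 1417587_at, differed by 0.07, and its groups overlapped. The E-box repressors Bhlhe40 and Bhlhe41 differed by 0.22 and 0.42. In the paralogue and partner group and in the E-box repressor group, 0 passed the threshold and 1 had an unadjusted p under 0.05 in limma. The 10 of clock-controlled outputs included Noct, the only 1 of them to pass, and the other 9 had positive differences. Of these 10, 3 belong to Id2, and 6 had an unadjusted p under 0.05 in limma.

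**Figure D3:**
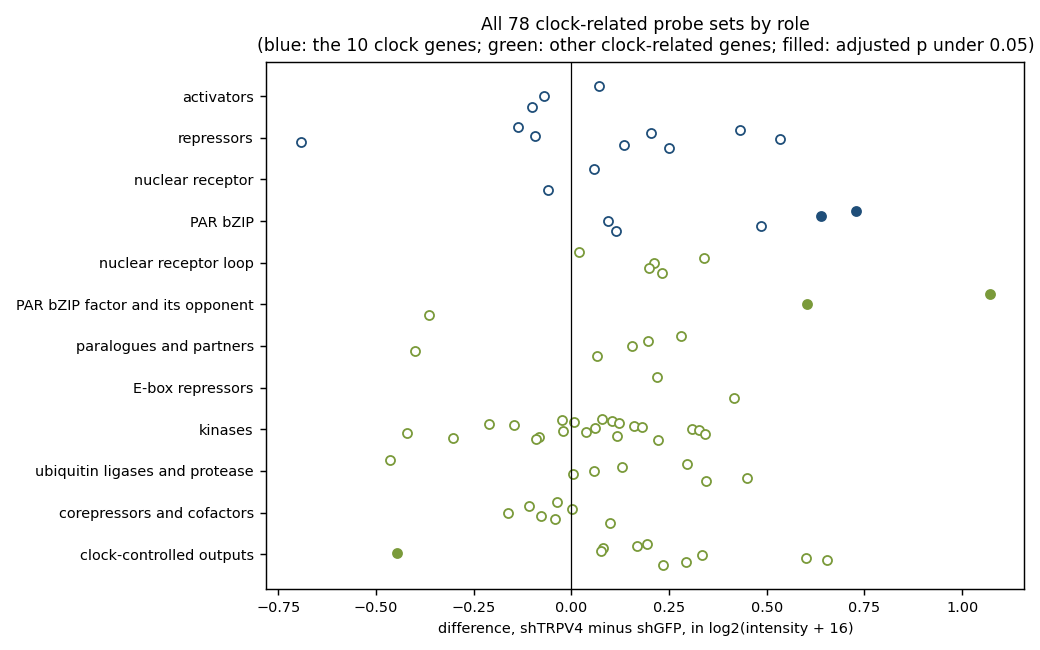
Differences (x axis, log2(intensity + 16), shTRPV4 minus shGFP) of all 78 clock-related probe sets by role; blue points are the 10 clock genes, green points the other genes, and filled points passed the threshold. The 4 filled points to the right are the Dbp and Hlf probe sets, and the 1 to the left is Noct.

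How firmly the near-threshold genes stand depends on the fit. The 7 clock gene probe sets with an unadjusted p under 0.05 kept their sign under every alternative in which they were measured. Which of them passed varied: only the Dbp probe sets did with the values as deposited, and Per2 (1417602_at), Per3 (1460662_at) and Tef (1438033_at) joined them with an offset of 64. With an offset of 1, 0 passed, with 7 at an unadjusted p under 0.05.

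**Figure D4:**
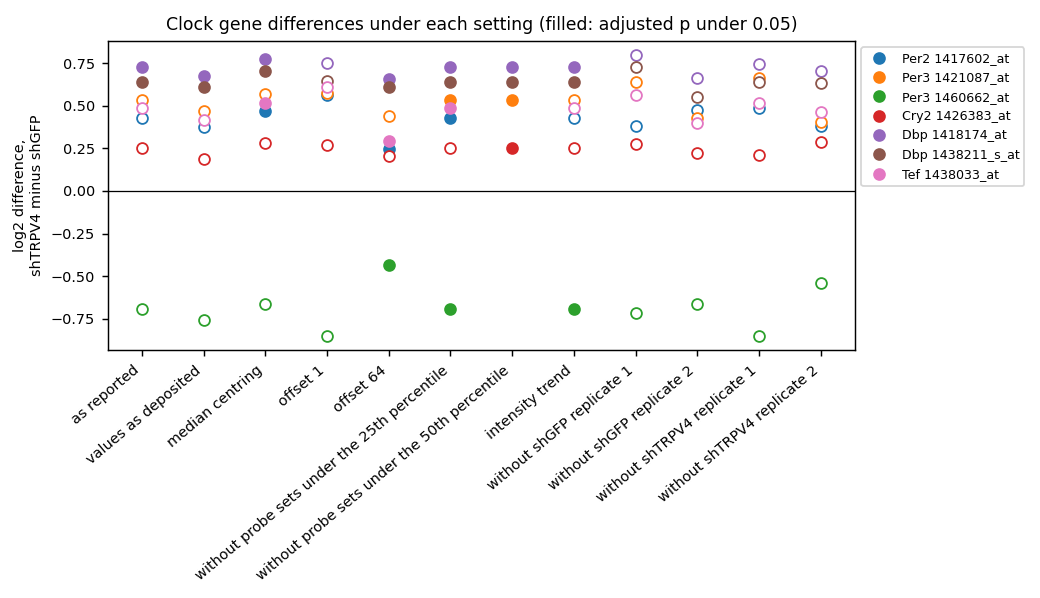
Differences (y axis, log2 scale, shTRPV4 minus shGFP) of the 7 clock gene probe sets with an unadjusted p under 0.05, as reported and under the alternatives named on the x axis; filled points had an adjusted p under 0.05. Every point of a probe set lies on the same side of 0, and no point is filled with an offset of 1 or with an array left out.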

How the data were processed

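The submitters deposited a processed table of linear intensity values, 1 for each probe set on each array. Affymetrix control probe sets were left out here, and 22626 probe sets were used. How the authors summarised, background-corrected and scaled the deposited intensities is not stated in the labels, and detection calls were not used. Array medians ran from 129.4 to 144.0, and 1.85% to 2.08% of the deposited values on an array were exactly 1. Having 2 arrays in a group limits the precision.

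From the deposited intensities, log2(intensity + 16) was computed and quantile normalized, and a fold change on that scale understates the change of dim probe sets. The shTRPV4 arrays were compared with the shGFP arrays in limma 3.58.1 (R 4.3.3; lmFit, then eBayes with no intensity trend), with 2 residual and 1.80 prior degrees of freedom. P-values are two-sided and from limma, Benjamini-Hochberg adjustment ran over the whole table, and the threshold was 0.05. The script was tested on simulated data.

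Genes were named from the platform annotation: 20380 probe sets had 1 symbol, 691 several and 1555 none. Gene IDs of all 10 members matched RefSeq (GRCm38.p6) with the same symbol. Named were every member probe set and, of the further clock-related genes, those with a probe set past the threshold and the 3 largest differences that did not pass. Nfil3, Nr1d1, Rora, Timeless, Npas2, Bhlhe40, Bhlhe41 and the brighter Btrc probe set fall outside this and were chosen after their values were seen. The members and lists were chosen with earlier results of these data known. Alternatives were the scaling, the offset, filters on dim probe sets, an intensity trend, averaged probe sets, the replicate number as a block and leaving out each array.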

Additional observations from a re-analysis of the deposited data

How the results depend on the processing

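Of the 18 clock gene probe sets, 14 kept their sign under all of the 12 alternatives in which they were measured. The 4 that changed sign had differences of at most 0.09 in size as reported. With 1 array left out, Arntl ran from -0.014 to 0.16, Per3 1421086_at from -0.26 to 0.068, Nr1d2 1416958_at from -0.0061 to 0.12 and Nr1d2 1416959_at from -0.14 to 0.020 (0.016 with median centring). Trpv4, reported at 0.32, ran from -0.093 to 0.73. Nr1d2 1416958_at gave -0.0014 without shTRPV4 replicate 2. Averaged over probe sets, Per3 gave -0.083 and Nr1d2 -0.0014, opposite to their probe sets 1421087_at and 1416958_at.

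The count of clock gene probe sets past the threshold was 2 (2 higher, 0 lower). It was 4 (4 higher) with median centring, 0 (0 higher) with an offset of 1, 5 (4 higher, 1 lower) with an offset of 64, 6 (5 higher, 1 lower) without probe sets under the 25th percentile and 4 (4 higher) without those under the 50th. With an intensity trend 1 was lower. The count of other clock-related probe sets was 3, and 1 with an offset of 1, 7 with an offset of 64, 8 and 10 without probe sets under the 25th and 50th percentiles and 8 with an intensity trend.

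Over all 22626 probe sets, 2240 passed (1027 higher, 1213 lower, 45.8% higher). The higher share was 34.1% with the values as deposited (600 higher) and 59.3% with median centring (1662 higher). With an offset of 1 there were 606 (180 higher, 426 lower), with an offset of 64 4116 (2130 and 1986), without probe sets under the 25th percentile 4059 (2084 and 1975), under the 50th 4874 (2642 and 2232), and with an intensity trend 4150 (2170 and 1980). The filters test fewer probe sets; for the other settings the cause was not tested.

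With 1 array left out, where the lone array of a group is assumed to vary like the other group, limma called 0 probe sets in each of these counts, with 4543 to 5913 in the table and 5 to 6 of the clock gene probe sets at an unadjusted p under 0.05. With the replicate number as a block, 0 passed in each count (6858 in the table and 7 clock gene probe sets at an unadjusted p under 0.05). The deviations of replicate 1 correlated at 0.12 between the groups over probe sets, and no label says that a number marks a shared batch, so the block is given here only as an alternative. Under it the Dbp probe sets had adjusted p = 0.081 and 0.086, those of Hlf 0.078 each and Noct 0.088, so these calls were lost. Intensities near the offset limit what can be read for Per2, Hlf, Btrc 1417325_at, Per3 1421086_at and 1460662_at and the dim probe sets of Nr1d2 and Tef. Per3 1460662_at differed by -0.85 with an offset of 1 and by -0.43 with an offset of 64.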
